A study of Mus musculus with 6 samples.

Results

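The genes described here encode the proteins of the cytosolic ribosome. They were taken as every gene symbol in the count tables with Rpl, Rps or Rplp and a number, with at most a short paralog ending, which leaves out the numbered pseudogenes and the S6 kinase genes. This gave 84 of the 35976 genes in the tables, 52 for the large subunit and 32 for the small subunit. A total of 80 of them, 48 large and 32 small, had enough counts to be tested among 13159 genes. The RNA came from amygdala cells enriched for neurons from male C57BL/6J mice, in 2 groups of 3 libraries. Cas9 was delivered to all of them by adeno-associated virus under GfaABC1D, an astrocyte promoter. The guides were directed at the gene of the epidermal growth factor receptor (sgEgfr) or at Rosa, a control locus (sgRosa). After more than 2 weeks of expression, both groups went through 7 days of stress by restraint in a tube, fear conditioning for 1 day and extinction for 3 days. The deletion was therefore directed to astrocytes, while the RNA was read in the neuron-enriched fraction. No unstressed group was analysed here, and the labels do not say whether each library came from 1 animal, so p-values measure only the spread between these libraries.

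The ribosome joins amino acids into protein. Its small subunit reads the mRNA and its large subunit forms the peptide bond, and most of its proteins are needed in equal numbers. In mammals nearly every ribosomal protein is made from a single active gene of several short exons, and copies without introns are scattered through the genome as processed pseudogenes. Their mRNAs open with a C followed by a run of pyrimidines, the 5′ terminal oligopyrimidine (TOP) motif, through which mTORC1 and LARP1 set their translation and stability together. In neurons, ribosomes are made in the cell body, and mRNAs of many ribosomal proteins are also carried into dendrites and axons.

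The TOP motif is the sequence feature that the members are known to share, so the annotated starts of 8 members described below are shown, 5 with and 3 without it. Each run gives 20 bases before and 10 bases from the RefSeq start (GRCm38.p6), 5′ to 3′ on the gene's own strand. Capitals mark the unbroken run of C and T that begins at the start, where it opens with C and at least 4 more pyrimidines follow.
Rpl35: gaagtcggccccgccctttcCTCTTTCTCT
Rpl38: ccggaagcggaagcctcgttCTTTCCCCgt
Rplp2: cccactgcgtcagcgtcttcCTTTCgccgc
Rps6: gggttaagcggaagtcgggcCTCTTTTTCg
Rps27: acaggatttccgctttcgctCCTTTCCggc
Rpl5: ctctttctcacgtcgcttgcgtgctggtgg
Rpl22l1: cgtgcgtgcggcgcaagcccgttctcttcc
Rps27l: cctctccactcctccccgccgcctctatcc
These windows lie at chr2:39005122-39005151 (minus strand) for Rpl35, chr11:114668560-114668589 (plus) for Rpl38, chr7:141447631-141447660 (plus) for Rplp2, chr4:86857358-86857387 (minus) for Rps6, chr3:90213639-90213668 (minus) for Rps27, chr5:107900508-107900537 (plus) for Rpl5, chr3:28805488-28805517 (plus) for Rpl22l1 and chr9:66946066-66946095 (plus) for Rps27l. A promoter was matched for 63 of the 84 members. Such a tract at the annotated start was found in 14 of the 63 members (22.2%), against 3.01% of 27025 genes with a promoter. The letters CTCTTT on the gene's strand, within 50 bases either side of the start, were found in 19 members (30.2%), against 4.68% of genes. In Rpl5 those letters stand upstream of the annotated start. An annotated start can lie before or after the one the cells use, so a window without the tract says only that these letters were not there. CCGGAAG, the core of an ETS-family site, was found on either strand in the window of 250 bases before to 50 after the start in 25 members (39.7%), against 9.93% of genes. ATGGCGG, part of a YY1 site, was found on either strand in 11 members (17.5%), against 4.69%, and TATAAA on the gene's strand in 7 members (11.1%), against 9.77%. The motifs were searched separately and may overlap.

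Total counts were between 2348897 and 10152812 per library. Egfr itself was at 1, 26 and 23 counts in the sgRosa libraries, in replicate order, and at 6, 18 and 6 counts in the sgEgfr libraries, which overlap, and its log2 fold change was −0.65 ± 1.03 (SE, n = 3 a group, edgeR adjusted p = 0.928). The deletion was directed to astrocytes, so this level in a neuron-enriched fraction does not check it. All 12 pan-neuronal markers were present in every library, but the 8 oligodendrocyte markers were also high, with summed levels of 24000 to 69700 CPM (counts scaled to a common library size) in sgRosa and 22200 to 56700 in sgEgfr. All 8 markers each of astrocytes and microglia and all 7 of endothelium were above 0 in every library; of the 7 choroid plexus markers, 1 was at 0 in sgRosa replicate 1 and 1 in sgEgfr replicate 3. Mitochondrial transcripts took 29.8% of the counts in sgRosa replicate 1 and 10.3% to 15.7% in the other libraries.

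Ribosomal protein transcripts took a smaller part of the RNA in the sgEgfr libraries. They held 0.591%, 0.481% and 0.509% of all counts in the sgRosa libraries, in replicate order, and 0.383%, 0.45% and 0.358% in the sgEgfr libraries. All 3 sgEgfr libraries were below all 3 sgRosa libraries. The means were 0.527% ± 0.057 (SD, n = 3) and 0.397% ± 0.0478 (SD, n = 3), a ratio of 0.754. With mitochondrial genes left out of the total the ratio was 0.696, and without sgRosa replicate 1 it was 0.802. In these bulk samples, fewer cells of a type rich in ribosomal protein mRNA and less of that mRNA per cell cannot be told apart.

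The mean log2 CPM of the 80 tested members was 6.07, 5.49 and 5.51 in the sgRosa replicates and 5.28, 5.42 and 5.11 in the sgEgfr replicates. The sgEgfr values were again all below the sgRosa values, but sgEgfr replicate 2 lay close to sgRosa replicates 2 and 3. Several marker lists differed between the libraries as well. The mean log2 CPM of the pan-neuronal list was 6.45, 6.49 and 7.67 in sgRosa and 7.5, 7.03 and 7.8 in sgEgfr, and that of the oligodendrocyte list was 11.68, 11.28 and 9.84 in sgRosa and 10.29, 11.01 and 9.48 in sgEgfr. Red blood cell genes had a summed level of 403 to 1070 CPM in sgRosa and 586 to 4050 CPM in sgEgfr, microglia markers 68.9 to 178 CPM and 37 to 515 CPM, and endothelial markers 1080 to 4230 CPM and 1810 to 2110 CPM. Choroid plexus markers had a summed level of 1710 to 11400 CPM in sgRosa and 510 to 8360 CPM in sgEgfr. Astrocyte markers had 751 to 1290 CPM and 400 to 1460 CPM. With the pan-neuronal level as a covariate the median log2 fold change of the members was −0.33. The part of the other cell types in the result was not tested.

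**Figure D1:**
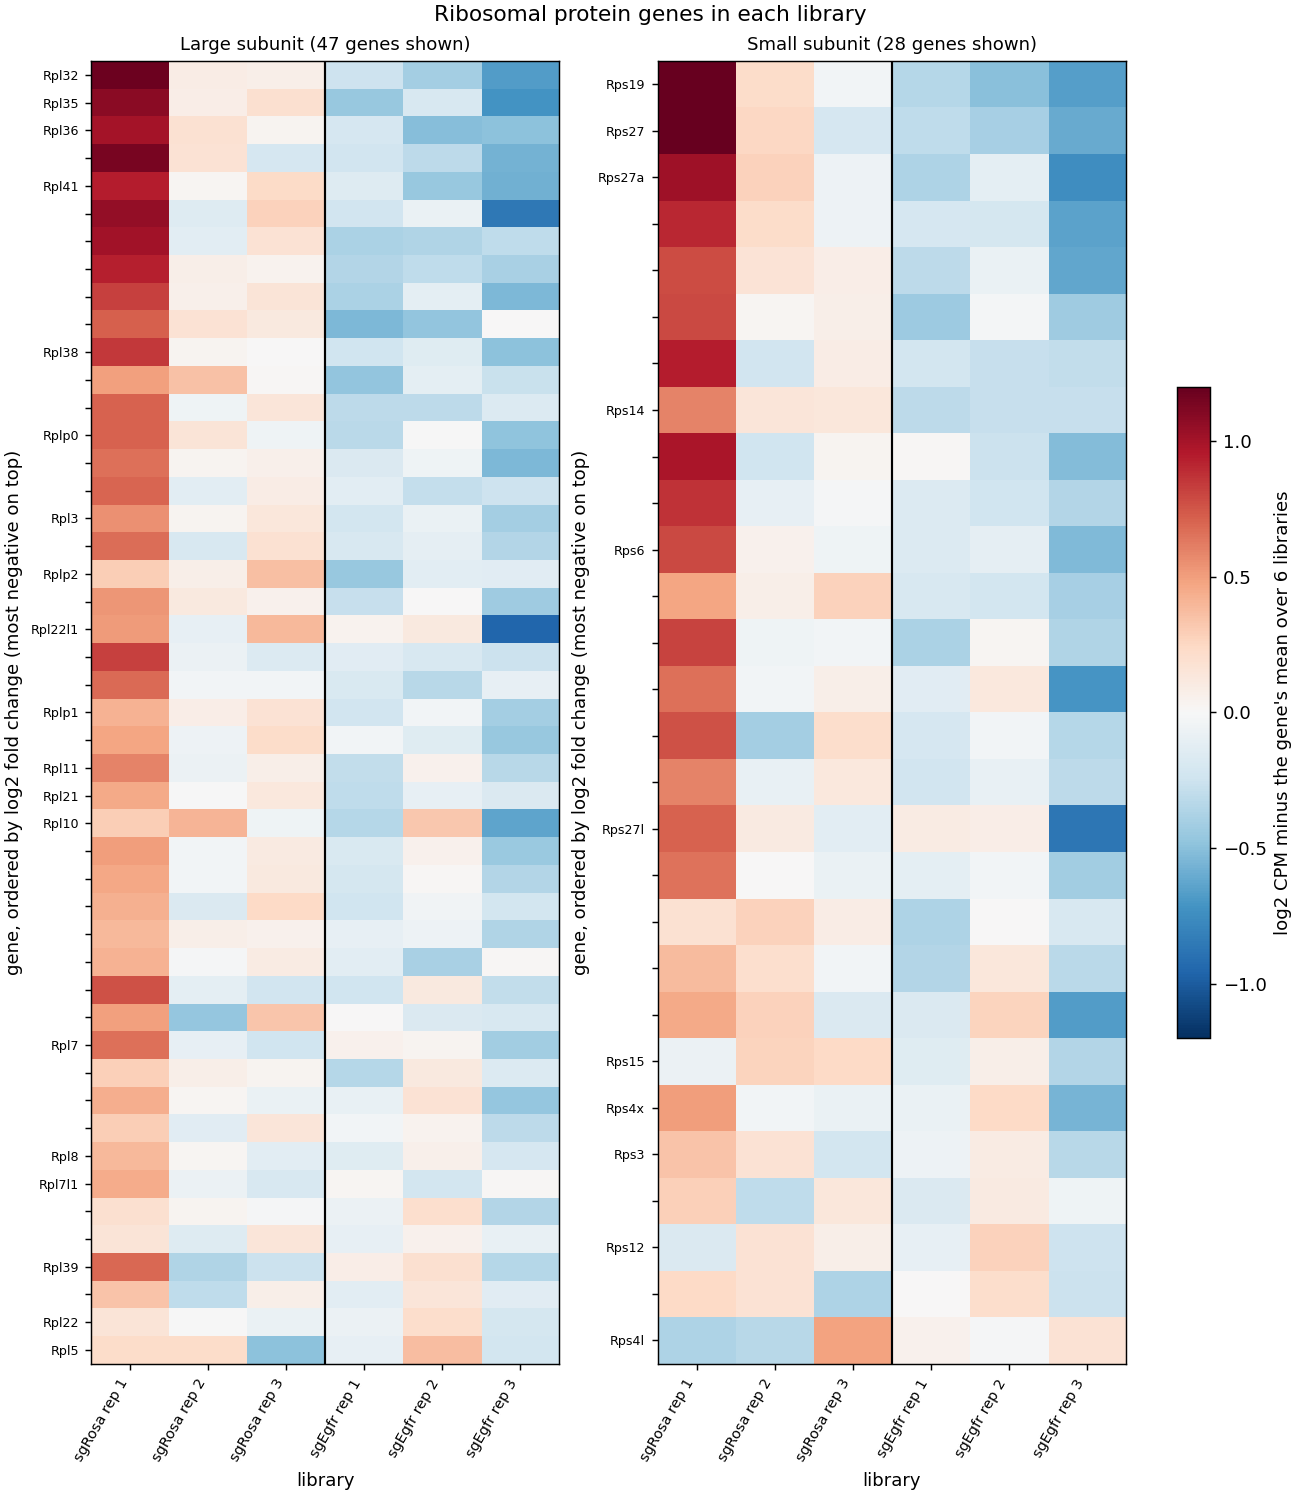
Log2 CPM in each of the 6 libraries (columns), less the gene's mean over the 6, for 47 of the 48 large and 28 of the 32 small subunit genes tested, ordered by fold change (the others are not shown here), with labels on genes named in the text; the colour scale ends at values just over 1. sgRosa replicate 1 is the reddest column and sgEgfr replicate 3 the bluest, and Rps4l and Rpl5 near the foot do not share the pattern.

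No single member passed the test. Of the 80 tested members, 0 were called at an adjusted p under 0.05 by edgeR (quasi-likelihood), with p-values adjusted after Benjamini and Hochberg over all 13159 genes. The same share, 0.00%, was called among all genes, and the smallest adjusted p of a member was 0.82. DESeq2 called 0 members and 25 genes in all (0.190%), and limma-voom called 0 members and 0 genes (0.00%). What the members showed was one sign: 77 of 80 had a negative log2 fold change (sgEgfr over sgRosa), while 53.8% of all genes tested did. Their median was −0.45, with quartiles of −0.6 and −0.28 and a lowest value of −1.12, against a median of −0.0387 for all genes tested.

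At an unadjusted p under 0.05, edgeR gave 18 of the 80 members as lower in sgEgfr, where 2.72% of all genes were, and 0 as higher, where 3.05% of all genes were. The 3 sgEgfr libraries lay below the 3 sgRosa libraries, with no overlap, in 35 members (22 large, 13 small), where 7.60% of all genes did so. They lay above them in 1 member, where 5.80% of all genes did so. The count of 18 depended on single libraries. Leaving out sgRosa replicates 1, 2 and 3 in turn gave 1, 13 and 27, where 1.32%, 1.58% and 8.65% of all genes fitted were lower. Leaving out sgEgfr replicates 1, 2 and 3 in turn gave 4, 2 and 1, where 0.754%, 1.41% and 0.487% of all genes were.

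The 6 members with the smallest p were Rps19, Rpl35, Rpl41, Rpl32, Rpl36 and Rps27a. Rps19 (chr7:24884371-24889806, plus strand, GENCODE annotation of GRCm38) is a small subunit protein needed to mature the 3′ end of 18S rRNA. It was at 175, 81.9 and 68.4 CPM in the sgRosa libraries, in replicate order, and at 55.4, 49.5 and 44.4 CPM in the sgEgfr libraries. The groups did not overlap, and sgRosa replicate 1 stood far above the rest. The log2 fold change was −1.12 ± 0.38 (SE, edgeR unadjusted p = 0.0185, adjusted p = 0.82), and without sgRosa replicate 1 it was −0.57.

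Rpl35 (chr2:39001580-39005624, minus strand), a protein beside the exit of the peptide tunnel whose start carries the longest tract of those shown, was at 114, 56.8 and 61.5 CPM in sgRosa and at 39.2, 47.1 and 32.7 CPM in sgEgfr. Its log2 fold change was −0.96 ± 0.32, and −0.55 without sgRosa replicate 1. Rpl32 was at 121, 56.8 and 56.2 CPM in sgRosa and at 45, 40.2 and 33.5 CPM in sgEgfr (log2 fold change −0.98 ± 0.35). Both genes showed the order seen in Rps19, with sgRosa replicate 1 highest, sgEgfr replicate 3 lowest and no overlap between groups. Rpl41, which encodes one of the shortest ribosomal proteins, was at 80.7, 42.6 and 49.1 CPM in sgRosa and at 37.7, 30.6 and 28.1 CPM in sgEgfr (−0.84 ± 0.3). Rpl36 was at 47, 26.7 and 24.1 CPM in sgRosa and at 20.5, 16.5 and 16.8 CPM in sgEgfr (−0.86 ± 0.31). Neither gene's groups overlapped. Without sgRosa replicate 1 the log2 fold changes of Rpl32, Rpl41 and Rpl36 were −0.49, −0.49 and −0.48. The adjusted p of each of these genes was 0.82.

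**Figure D2:**
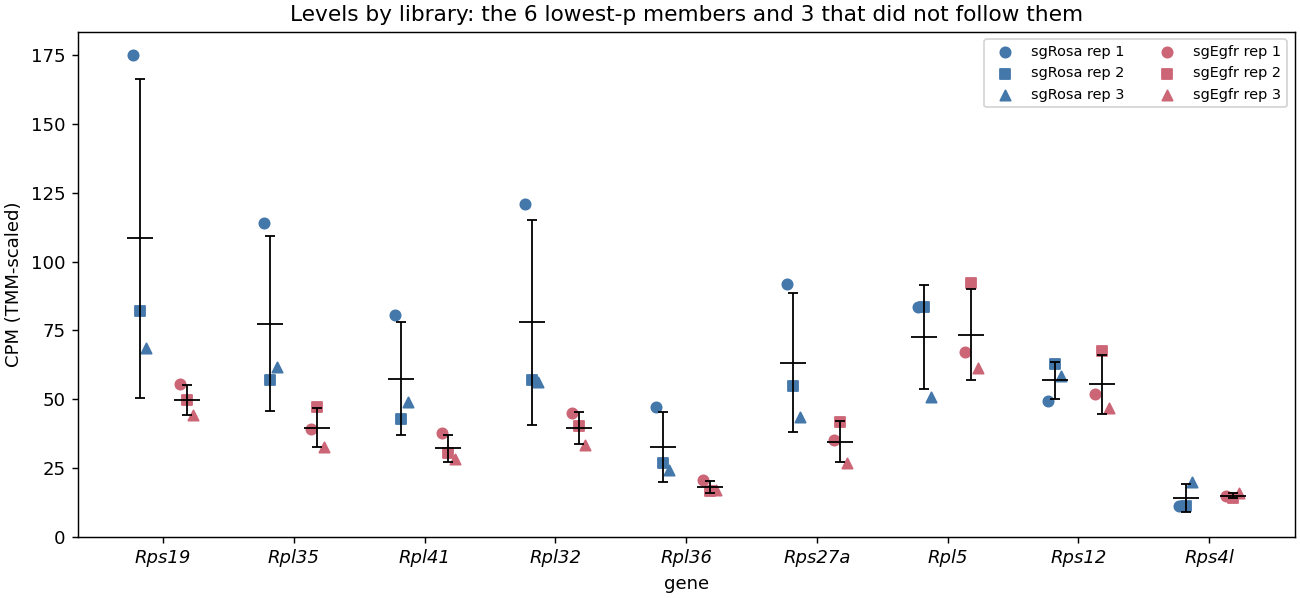
TMM-scaled CPM (y axis) of 9 members (x axis) in the 3 sgRosa (blue) and 3 sgEgfr (red) libraries; bars are the mean and SD of each group. In the first 6 genes, those with the smallest p, sgRosa replicate 1 lies far above the other libraries, while in Rps12 and Rps4l it does not; Rps12 was chosen after its values were seen.

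One library was the highest for most members. Of the 80 tested members, 70 were highest in sgRosa replicate 1, where 26.2% of all genes tested had their maximum, and 49 were lowest in sgEgfr replicate 3, where 18.7% of all genes had their minimum. The median deviation of the members from their own mean over the 6 libraries was 0.59 in sgRosa replicate 1, 0.0202 in sgRosa replicate 2, 0.0574 in sgRosa replicate 3, −0.2 in sgEgfr replicate 1, −0.0483 in sgEgfr replicate 2 and −0.35 in sgEgfr replicate 3, on the log2 scale. Without sgRosa replicate 1, the members' median log2 fold change was −0.2 and 70 of the 80 were negative, where 53.8% of all genes fitted were. There, 34 of 80 members still had sgEgfr libraries wholly below the sgRosa libraries, where 10.9% of all genes fitted did so with 2 libraries against 3. The same library had the highest mitochondrial share, 29.8%, and the lowest mean log2 CPM of the pan-neuronal markers, 6.45, close to 6.49 in sgRosa replicate 2. It also had the highest mean log2 CPM of the oligodendrocyte markers, 11.68, and of the endothelial markers, 8.38. In sgEgfr replicate 3 the mean log2 CPM was the highest of all libraries for the pan-neuronal markers, 7.8. That library had the lowest values for the oligodendrocyte (9.48), astrocyte (4.42), microglia (2) and choroid plexus (1.68) markers. The part of any of these in the result was not tested.

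The proteins of the acidic stalk, which draws elongation factors to the large subunit, had similar fold changes. Rplp0, the base of the stalk, was at 137, 93.1 and 80.6 CPM in sgRosa and at 66.8, 83.5 and 60 CPM in sgEgfr. Rplp1 was at 163, 129 and 137 CPM in sgRosa and at 104, 119 and 91.6 CPM in sgEgfr. Rplp2, the other tip protein, was at 52.6, 45.1 and 55 CPM in sgRosa and at 31.3, 39.3 and 39 CPM in sgEgfr. The groups did not overlap for Rplp1 and Rplp2 and overlapped for Rplp0, where sgEgfr replicate 2 lay above sgRosa replicate 3. Rplp2 was 1 of the members in which sgRosa replicate 1 was not the highest library. The log2 fold changes were −0.56 ± 0.28, −0.45 ± 0.23 and −0.48 ± 0.21 for Rplp0, Rplp1 and Rplp2, and −0.29, −0.32 and −0.44 without sgRosa replicate 1.

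Rpl5 and Rpl11, which bind 5S rRNA and can hold back Mdm2 when ribosome assembly fails, differed from each other. Rpl11 was at 43, 27.1 and 30 CPM in sgRosa and at 23.2, 29.5 and 22.6 CPM in sgEgfr. Its groups overlapped, and the log2 fold change was −0.41 ± 0.26, or −0.16 without sgRosa replicate 1. Rpl5 (chr5:107900502-107909005, plus strand) was at 83.5, 83.5 and 50.7 CPM in sgRosa and at 67, 92.2 and 61.2 CPM in sgEgfr. The lowest and the highest library belonged to different groups and the ranges overlapped throughout, with a log2 fold change of 0.0233 ± 0.29. Its sign depended on the libraries used. Leaving out sgRosa replicate 3 gave −0.19 and leaving out sgEgfr replicate 2 gave −0.16, and it was −0.0123 with upper-quartile scaling.

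Rps27a is made as a fusion to ubiquitin and so supplies both the ribosome and the ubiquitin pool. It was at 91.7, 54.7 and 43.5 CPM in sgRosa and at 35, 41.7 and 26.9 CPM in sgEgfr, with no overlap (−0.87 ± 0.33, and −0.48 without sgRosa replicate 1). Rps6, the protein that S6 kinases phosphorylate below mTORC1, was at 84.9, 50.5 and 47.2 CPM in sgRosa and at 43.7, 45.5 and 33.9 CPM in sgEgfr. Its groups were separated by a narrow gap between sgRosa replicate 3 and sgEgfr replicate 2 (−0.56 ± 0.29, and −0.23 without sgRosa replicate 1). Rpl38, needed for translation of certain Hox mRNAs in the embryo, was at 63.8, 36.3 and 35.6 CPM in sgRosa and at 30.1, 32.1 and 25.3 CPM in sgEgfr (−0.63 ± 0.29, and −0.28 without sgRosa replicate 1). The starts of Rps6 and Rpl38, shown above, both carry the pyrimidine tract. These are mRNA levels, and phosphorylation and translation were not measured.

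The 4 X-linked members had a median log2 fold change of −0.29, and their groups overlapped in each. Rpl10, at the joining site of the subunits, was at 47.5, 51.4 and 37.4 CPM in sgRosa and at 30.5, 48.4 and 24.9 CPM in sgEgfr (−0.38 ± 0.3). Rps4x was at 56.8, 39.3 and 38 CPM in sgRosa and at 38, 47.3 and 27.3 CPM in sgEgfr (−0.25 ± 0.28). Rpl39, which lines the peptide tunnel, was among the least abundant members, at 10.4, 5.01 and 5.4 CPM in sgRosa and at 6.82, 7.36 and 5.07 CPM in sgEgfr (−0.1 ± 0.4). Its sign rested on sgRosa replicate 1, since without that library it was 0.33. A list of 9 was chosen from the members in which loss of 1 copy causes Diamond-Blackfan anaemia in people. In that list 7 had a negative log2 fold change, with a median of −0.46 and the lowest value, −1.12, in Rps19.

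Rps12, chosen for mention after its values were seen, was at 49.2, 62.7 and 58.4 CPM in sgRosa and at 52, 67.4 and 46.8 CPM in sgEgfr. Unlike in most members, sgRosa replicate 1 was the lowest of its group, and the groups overlapped. The log2 fold change was −0.0325 ± 0.23. Transcripts of 22 other annotated genes resembled the coding sequence of Rps12, at 95% identity or more over 80% of its length or more. Reads of Rps12 could have been split or lost in counting, which was not tested. Of the 3 tested members with a positive value, Rps4l was at 0.059 and Rpl5, as above, at 0.0233.

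The most abundant members per kilobase of transcript were all of the small subunit. Rps14 had a mean of 326 CPM per kb, Rps15 of 266 and Rps27 of 249, and the lowest tested member, Rps20, had 9.37 on an annotated transcript far longer than its coding sequence needs. Rps14 was at 287, 209 and 208 CPM in sgRosa and at 152, 156 and 156 CPM in sgEgfr. The sgEgfr libraries were nearly equal and clear of the sgRosa libraries (−0.6 ± 0.24, unadjusted p = 0.0396 by edgeR, and −0.41 without sgRosa replicate 1). Rps15 was at 125, 158 and 155 CPM in sgRosa and at 119, 138 and 103 CPM in sgEgfr. Its groups overlapped, because sgRosa replicate 1 was here the lowest of its group (−0.28 ± 0.24). Rps27 was at 185, 91.9 and 67.1 CPM in sgRosa and at 62.7, 58.5 and 51 CPM in sgEgfr. It had no overlap between groups and the widest spread within sgRosa of these genes (−0.99 ± 0.38, and −0.45 without sgRosa replicate 1). Across the 80 tested members the log2 fold change had little relation to the mean log2 CPM (Pearson's r = −0.0917, Spearman's rho = −0.0875, a description over genes that share the same 6 libraries).

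Large and small subunit genes had nearly the same median fold change. The median was −0.45 in 48 large subunit genes, of which 47 were negative, and −0.46 in 32 small subunit genes, of which 30 were negative. The mean log2 CPM of the large subunit genes less that of the small subunit genes was −0.1, −0.16 and −0.0851 in sgRosa and −0.14, −0.17 and −0.0776 in sgEgfr. These values interleaved between the groups. Counts of the large subunit genes were 1.4, 1.36 and 1.47 times those of the small subunit genes in sgRosa and 1.41, 1.38 and 1.44 times in sgEgfr. The difference of the medians, large less small, was 0.00846. With 1 library left out it was lowest without sgRosa replicate 1, at −0.0329, and highest without sgRosa replicate 2, at 0.0622.

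Of the 7 paralog pairs, 4 had enough counts to be compared. The other 3 paralogs were close to absent. Rpl10l, an autosomal copy known from testis, was at 0 counts in all 6 libraries, and 3 counts would have been 0.27 to 1.25 CPM. Rpl39l was at 1 count in sgEgfr replicate 1 and 0 elsewhere. Rpl3l, known from heart and skeletal muscle, was at 0, 2 and 2 counts in sgRosa and at 0, 2 and 0 in sgEgfr, or 0.166% of the counts of the pair with Rpl3. Rpl3 itself was at 176, 123 and 132 CPM in sgRosa and at 103, 114 and 90.4 CPM in sgEgfr, with no overlap (−0.48 ± 0.25). The remaining member without a test, Rpl32l, an annotated processed pseudogene, was at 3, 0 and 7 counts in sgRosa and at 1, 8 and 2 in sgEgfr.

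In the 4 pairs compared, the paralog held 45.6% of the pair's counts for Rpl22l1 and Rpl22, 36.5% for Rpl7l1 and Rpl7, 28.1% for Rps4l and Rps4x, and 22.1% for Rps27l and Rps27. Rpl22l1, which can take the place of Rpl22 in the ribosome, was at 36.3, 23.8 and 33.4 CPM in sgRosa and at 26.2, 27.7 and 13.2 CPM in sgEgfr (log2 fold change −0.47 ± 0.33). Rpl22 was at 38.8, 34.7 and 33 CPM in sgRosa and at 33.1, 40.4 and 30 CPM in sgEgfr (−0.0382 ± 0.22). The log2 ratio of Rpl22l1 to Rpl22 was −0.1, −0.54 and 0.0156 in sgRosa and −0.33, −0.54 and −1.17 in sgEgfr. The groups overlapped at sgRosa replicate 2, and the lowest ratio was that of sgEgfr replicate 3. The difference of the mean ratios was −0.47 (exact permutation test, two-sided p = 0.2, Benjamini-Hochberg adjusted over 4 pairs 0.533), and −0.23 without sgEgfr replicate 3.

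Rps27l, a paralog of Rps27 that p53 can induce, was at 36, 23.8 and 20.3 CPM in sgRosa and at 23.7, 23.4 and 12.1 CPM in sgEgfr (−0.42 ± 0.35). Its log2 ratio to Rps27 was −2.36, −1.94 and −1.73 in sgRosa and −1.4, −1.32 and −2.06 in sgEgfr. Here sgEgfr replicate 3 lay among the sgRosa values, and the difference of 0.41 had an exact permutation p of 0.3 (adjusted 0.533); leaving out sgRosa replicate 1 gave 0.24 and leaving out sgEgfr replicate 3 gave 0.65. Rps4l, annotated as a transcribed processed pseudogene of the Rps4 family, was at 11, 11.3 and 19.9 CPM in sgRosa and at 14.7, 14.1 and 16 CPM in sgEgfr. Its log2 ratio to Rps4x was −2.36, −1.78 and −0.93 in sgRosa and −1.36, −1.74 and −0.76 in sgEgfr. The groups overlapped, and the difference of 0.4 (exact permutation p = 0.4, adjusted 0.533) changed with single libraries, to 0.0669 without sgRosa replicate 1, 0.78 without sgRosa replicate 3, 0.63 without the second sgEgfr library and 0.14 without the third. With 3 libraries against 3 the smallest p this test allows is 0.1.

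Rpl7l1, a homolog of Rpl7, was at 43.6, 30.5 and 28.1 CPM in sgRosa and at 32.6, 27.4 and 32.3 CPM in sgEgfr (−0.14 ± 0.25). Rpl7 was at 86.1, 51 and 46.3 CPM in sgRosa and at 56.7, 56 and 40.9 CPM in sgEgfr (−0.25 ± 0.3). The log2 ratio was −0.98, −0.74 and −0.72 in sgRosa and −0.8, −1.03 and −0.34 in sgEgfr. The sgEgfr values spread on both sides of the sgRosa values, and the difference was 0.092 (exact permutation p = 0.9, adjusted 0.9). Leaving out sgEgfr replicate 3 gave −0.1, leaving out sgEgfr replicate 2 gave 0.25 and leaving out sgRosa replicate 1 gave 0.00836.

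**Figure D3:**
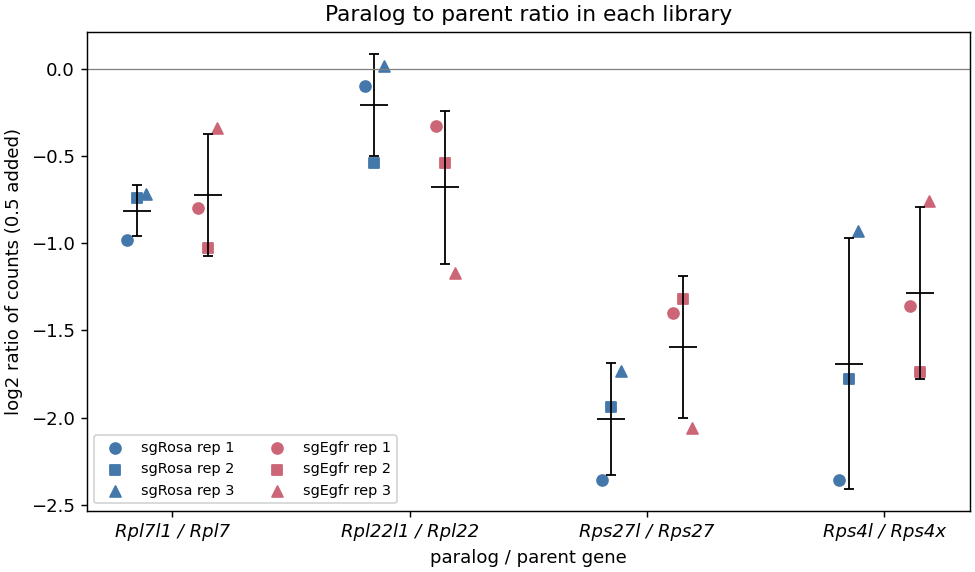
Log2 ratio of the paralog's counts to its parent gene's counts, 0.5 added to each (y axis), in each library for 4 pairs (x axis); bars are the mean and SD of 3 sgRosa (blue) and 3 sgEgfr (red) libraries. The groups overlap in every pair shown.

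Member transcripts were short, and short transcripts in general lay lower in sgEgfr. The median transcript length was 705 bases in the tested members (271 to 3706) and 2884 bases in all tested genes. Among genes that were not members, the median log2 fold change was −0.23 up to 500 bases, −0.27 from 500 to 750, −0.31 from 750 to 1000, −0.22 from 1000 to 1500, −0.12 from 1500 to 2500, −0.0412 from 2500 to 4000 and 0.13 above 4000 bases. In the same bins the members' medians were −0.48 (19 genes), −0.47 (22), −0.4 (22), −0.42 (12), −0.28 (4) and −0.35 (1), with none above 4000 bases. The members' medians were thus below those of other genes of like annotated length in each bin that held members. The last pair of bins held 5 or fewer of them, and the 1 member from 2500 to 4000 bases was Rps20, on the long annotated transcript named above. With each library's trend on length removed, the members' median was −0.2, with 66 of 80 negative. At an unadjusted p under 0.05 by edgeR, 2 members were lower and 1 was higher. Over all genes fitted, 54.7% were negative, and at that p 1.63% were lower and 350 of 13159 were higher. With that trend removed and without sgRosa replicate 1, a setting chosen after seeing the data, the members' median was −0.0477, with 52 of 80 negative. Over all genes fitted there, the median was −0.0346 and 54% were negative. The part of fragment length or RNA quality in the result was not tested.

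**Figure D4:**
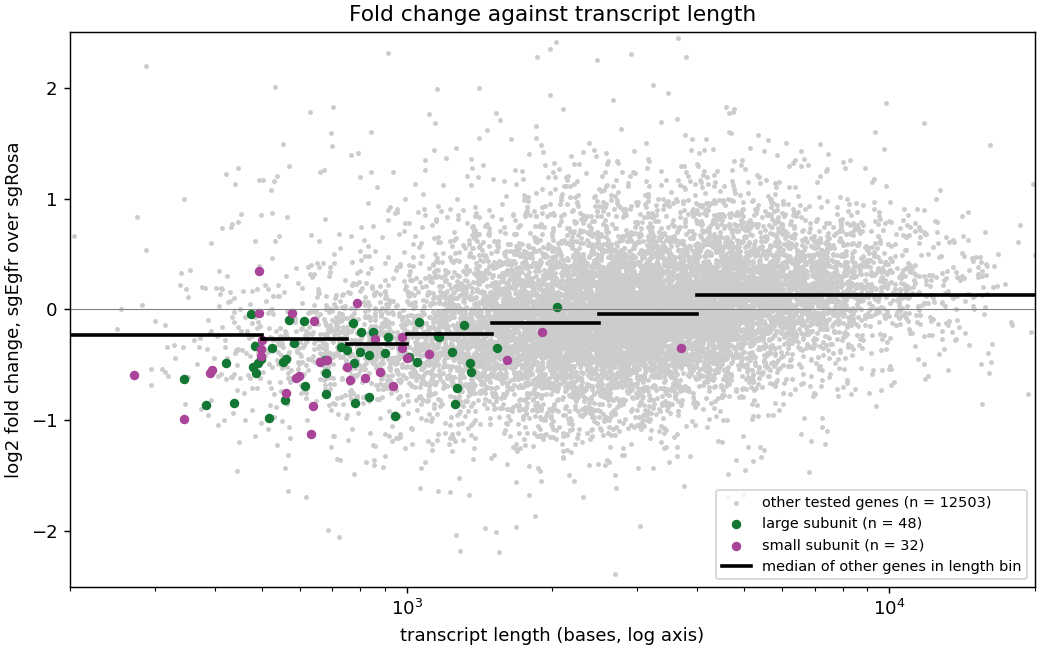
Log2 fold change, sgEgfr over sgRosa (y axis), against transcript length in bases (log x axis) for 48 large (green) and 32 small (purple) subunit members and 12503 other tested genes (grey, 27 of them outside the axes); black bars are medians of the other genes in each length bin. The bars lie below 0 up to 4000 bases and above 0 beyond, and in each bin with members their median lies below the bar.

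**Figure D5:**
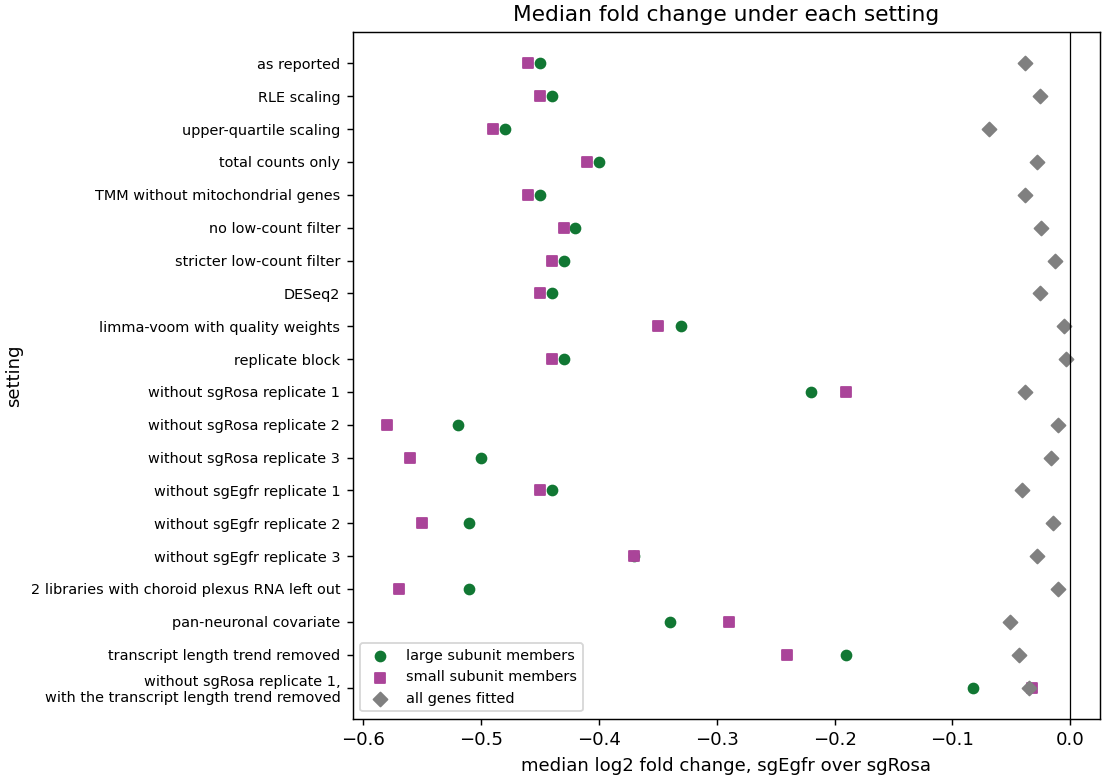
Median log2 fold change (x axis) of the large (green) and small (purple) subunit members and of all genes fitted (grey) under each setting (y axis). The member medians stay near −0.45 under other scalings and filters, move to about −0.2 without sgRosa replicate 1 or with the length trend removed, and lie beside the median of all genes when both are done.

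Copies of the members in the genome were common, and members with many and few of them had similar fold changes. For 77 of the 84 members, at least 1 other annotated gene had a transcript near-identical to the member's coding sequence. The limits were 95% identity or more over 80% or more of that sequence. There were 564 such genes in all, of which 546 were annotated as processed pseudogenes. The median was 5 per member and the highest 57, for Rpl21. With members left aside, only 50 of the 564 were listed in the count tables. They had 301 to 1644 counts per library in all, against 9027 to 51725 counts in the members. The median log2 fold change was −0.42 in 16 tested members with 10 or more such copies and −0.35 in 15 with 0 or 1 (r = −0.037 and rho = −0.0102 over 80 members, as a description). Rps3 and Rpl8, with no such copy, both had a log2 fold change of −0.2.

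Other sequence features divided the members little. The 29 members with small nucleolar RNA (snoRNA) genes in their introns had a median of −0.39 and the 51 without −0.47. The 13 tested members with a pyrimidine tract at the annotated start had −0.48, and 46 with a promoter but no tract there −0.43. For CCGGAAG in the promoter the medians were −0.47 (24 with) and −0.43 (35 without). The 19 members whose exons overlap a gene on the other strand had −0.45 and the other 61 had −0.46; no source used here gives the strand setting of the counting, so reads of such pairs may have been mixed. The members lay on 19 chromosomes.

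The 5 ribosomal proteins whose symbols fall outside the naming rule were divided, with 3 negative and 2 positive. Fau, the fusion that carries small subunit protein eS30, was at 70.9, 48 and 51.6 CPM in sgRosa and at 38, 39.9 and 32.7 CPM in sgEgfr (−0.62 ± 0.24). Its groups did not overlap. Rpsa was at −0.31, Rpl36al at 0.0053 and Rack1, the scaffold on the head of the small subunit, at 0.16, and none of the 5 passed edgeR's test.

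The other lists of translation genes had medians nearer to 0 than the members, apart from the snoRNA host genes. The lists were not matched to the members in transcript length, with which fold changes varied, as above. None of the lists below had a gene called by edgeR. Among 10 elongation factors and other mRNAs with the TOP motif, 4 were negative and the median was 0.13, with Eef1g at −0.55 and Nap1l1, a histone chaperone, at 0.51. Their mean log2 CPM was 6.81, 6.79 and 6.69 in sgRosa and 6.74, 6.98 and 6.57 in sgEgfr, which overlap. Among 29 initiation factors 19 were negative and 10 positive (median −0.14). The eIF3 subunits Eif3k and Eif3l were at −0.75 and −0.64, and Eif5b was at 0.49. Among 28 ribosome biogenesis factors 18 were negative (median −0.0905), with Ltv1, a small subunit assembly factor, at −0.7 and Rrn3, an RNA polymerase I initiation factor, at 0.75. Among 15 genes of the mTORC1 pathway or TOP mRNA regulation 7 were negative (median 0.00569), with Akt1s1 at −0.44 and Larp4 at 0.94 ± 0.54. Larp4 was at 40.8, 58.9 and 10.4 CPM in sgRosa and at 77.6, 69.2 and 60.8 CPM in sgEgfr, so sgRosa replicate 3 stood apart. Among 7 host genes of snoRNAs, which like the members include TOP transcripts, 6 were negative (median −0.59). Gas5 was at 216, 129 and 72.6 CPM in sgRosa and at 74.6, 81.2 and 76 CPM in sgEgfr (−0.85 ± 0.38); its groups overlapped at sgRosa replicate 3, and sgRosa replicate 1 was again the highest library.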

How the data were processed

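The authors deposited raw counts per gene, whole numbers with no normalization, as 1 table per library and 1 for the series; the 6 matching columns were identical, and 3 columns that matched no sample were not used. The submitters' processing notes name FastQC 0.11.9, MultiQC 1.11, edgeR 3.42.4, fastp 0.23.2, featureCounts 2.0.1, STAR 2.7.5c and mm10; their options, annotation and strand setting are not given in the sources used here. Papain-dissociated tissue was enriched for neurons with magnetic beads, and each library used 5 ng of RNA, per the labels' protocols. There are no molecular identifiers, so floors cover counting error only.

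Genes passing filterByExpr (minimum count 10, minimum total 15) were scaled by TMM and tested with edgeR 4.0.16 (R 4.3.3), quasi-likelihood, robust dispersion, sgEgfr against sgRosa without covariates, with p adjusted by the Benjamini-Hochberg procedure (threshold 0.05). The procedure was run on simulated counts, in which genes varied independently and no effect was shared by the genes of a library. That run does not check the fit against such shared effects. CPM is TMM-scaled; log2 CPM adds a prior count of 2; standard errors come from the fold change and F. Paralog ratios (0.5 counts added, at least 3 counts in each library) were compared by exact permutation. Transcripts near-identical to the members' coding sequences were found with blastn 2.17.0. Positions are from GENCODE (GRCm38, which mm10 names), promoters from RefSeq. Members without a promoter entry included Rps14, Rpl32, Rps4l, Rps27a, Rps20, Rpl36, Rpl17, Rpl30, Rpl23a, Rpl3, Rpl29, Rpl21, Rpl7, Rplp1, Rpl8 and Rps29.

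Some genes are not reported here. Per-library values are given for the 6 tested members with the smallest p in each direction (3 were positive), the 3 highest in CPM per kb, the paralog pairs and members with set roles, and up to 4 genes per other list may be named. Members, lists and tests were chosen with earlier results of these data known, so lists get counts and medians and no test. Transcript length (shortest principal transcript) and the use of coding sequences for copies were settled after first values were seen. Alternatives were RLE, upper-quartile and total-count scaling, TMM without mitochondrial genes, 2 other filters, DESeq2 1.42.0, limma-voom 3.58.1 with quality weights, a replicate block, left-out libraries, a pan-neuronal covariate, removal of the length trend (lowess span 0.3), and an adjusted p under 0.1.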

Additional observations from a re-analysis of the deposited data

How the results depend on the processing

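Under every alternative run, 0 members were called. Genes called over the whole table numbered 1 with no low-count filter (smallest adjusted p 0.0348) and 25 with DESeq2 (23 higher, 2 lower, with an adjusted p for 9065 genes), against 0 in the reported edgeR fit, where 759 genes had an unadjusted p under 0.05. The members' median of −0.45 lay between −0.49 and −0.4 under other scalings, was −0.34 with limma-voom and ranged from −0.53 to −0.2 with 1 library left out. It was −0.0477 without sgRosa replicate 1 and with the length trend removed. The share ratio of 0.754 ranged from 0.703 to 0.802 with 1 library left out. The difference of the subunit medians ranged from −0.0329 to 0.0622 with 1 library left out, and was 0.0661 without the pair of libraries rich in choroid plexus transcripts (sgEgfr replicate 1, sgRosa replicate 3), −0.0535 with the pan-neuronal covariate and −0.0503 without sgRosa replicate 1 and with the length trend removed; the cause was not tested. Same-numbered libraries had deviations correlated at −0.0311, 0.48 and 0.28. The labels do not say whether the numbers pair the libraries, and so few correlations cannot decide it. With a replicate block the members' median was −0.43 and 0 genes were called. Of the sgRosa libraries, replicates 2 and 3 correlated best with their own number and replicate 1 did not.

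Signs turned as follows, with no call in any of these fits. Rpl5 was −0.0123 with upper-quartile scaling, −0.2 with limma-voom, −0.19 without sgRosa replicate 3, −0.16 without sgEgfr replicate 2 and −0.11 without both choroid plexus libraries. Without sgRosa replicate 1, Rpl39 was 0.33, Rpl7 0.1, Rpl7l1 0.0948, Rpl22 0.0522 and Rps4l −0.0742. Without sgRosa replicate 2, Rps4l was −0.0268. Without sgEgfr replicate 3, Rpl22 was 0.0695, Rpl39 0.0497 and the ratio of Rpl7l1 to Rpl7 −0.1; that ratio reached 0.25 without sgEgfr replicate 2. With limma-voom Rpl39 was 0.1. With the pan-neuronal covariate Rpl39 was 0.17, Rpl22 0.0815, Rpl7 0.0406 and Rps4l −0.2. With the length trend removed Rpl22 was 0.23, Rpl39 0.19 and Rpl7l1 0.0273. With that trend removed and sgRosa replicate 1 left out, Rpl39 was 0.5, Rpl7 0.24, Rpl7l1 0.22, Rpl22 0.21, Rps4x 0.14 and Rps27l 0.0313. Over the fits with 1 library left out, these genes ranged from −0.19 to 0.16 (Rpl5), −0.43 to 0.1 (Rpl7), −0.15 to 0.0695 (Rpl22), −0.28 to 0.33 (Rpl39), −0.28 to 0.0948 (Rpl7l1) and −0.0742 to 0.42 (Rps4l). Depth limits the 4 untested members, which had 0 to 8 counts in a library.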
